A study of Mus musculus with 12 samples.

Results

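The transcripts of 10 mouse genes that move or bind zinc were described in the adult hippocampus, the brain region that serves learning and memory. The genes were taken by name, with earlier results of these data known: 5 importers of the ZIP family (Slc39a11, Slc39a1, Slc39a6, Slc39a10 and Slc39a14), 2 exporters of the ZnT family (Slc30a1 and Slc30a3) and 3 metallothioneins (Mt1, Mt2 and Mt3). Slc39a11 was included because the study names it. All 10 were among the 18388 genes tested, and they have 46 of the 115270 transcripts in the table. Of these 46 transcripts, 4 were listed at 0 in every library and 29 passed the filter on low values, which asked for 0.1 TPM or more in at least 6 libraries.

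RNA-Seq values came from hippocampi of 12 male C57BL/6 mice (C57BL/6J in the paper's methods) at postnatal day 70, with 3 mice in each of 4 groups. Control mice were born to dams that drank water only and stayed with the dam and littermates. Ethanol mice were born to dams with free access to 10% ethanol in water through gestation and, per the paper's methods, until postnatal day 10. Stress mice were born to dams that drank water only and were held alone, away from dam and littermates, for 3 h a day between postnatal days 2 and 14. Ethanol + stress mice had both exposures. Within a litter some pups were isolated and others were not, so that control and stress mice, and likewise ethanol and ethanol + stress mice, may be littermates, which the labels do not tell. Ethanol was taken voluntarily by the dam, and no blood alcohol level was measured in these mice.

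Zinc is an essential metal that is also toxic in excess, so cells hold its free level low. ZIP proteins carry zinc into the cytosol from outside the cell or from organelles, ZnT proteins carry it out of the cytosol, and metallothioneins are small cysteine-rich proteins that bind zinc and copper. In the hippocampus zinc is stored with glutamate in synaptic vesicles of the mossy fibers, while Mt1 and Mt2 are made mainly by glia and are induced by zinc, glucocorticoids and oxidative stress through factors that include the zinc sensor MTF1.

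MTF1 binds metal response elements, whose core reads TGCACNC or TGCGCNC. Promoters of the 3 metallothioneins and of Slc30a1, whose levels in ethanol + stress mice lay apart from those in control mice, are shown because they carry this core in unequal number. Each line gives the 250 bases before the start of transcription in RefSeq, build GRCm38.p6, plus strand, 5′ to 3′, with each match to this core on either strand in capitals. Mt1 is at chr8:94178839-94179088, Mt2 at chr8:94172368-94172617, Mt3 at chr8:94152357-94152606 and Slc30a1 at chr1:191906531-191906780.
Mt1: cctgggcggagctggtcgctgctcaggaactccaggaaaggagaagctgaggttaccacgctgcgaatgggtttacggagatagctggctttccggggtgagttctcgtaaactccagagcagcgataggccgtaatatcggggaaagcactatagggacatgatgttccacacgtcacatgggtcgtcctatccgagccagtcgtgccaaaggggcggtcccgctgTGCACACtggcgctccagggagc
Mt2: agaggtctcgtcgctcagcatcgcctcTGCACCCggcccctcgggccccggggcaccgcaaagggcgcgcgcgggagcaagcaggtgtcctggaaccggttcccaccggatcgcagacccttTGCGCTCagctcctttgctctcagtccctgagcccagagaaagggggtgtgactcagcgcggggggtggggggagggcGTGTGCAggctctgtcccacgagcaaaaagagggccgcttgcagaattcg
Mt3: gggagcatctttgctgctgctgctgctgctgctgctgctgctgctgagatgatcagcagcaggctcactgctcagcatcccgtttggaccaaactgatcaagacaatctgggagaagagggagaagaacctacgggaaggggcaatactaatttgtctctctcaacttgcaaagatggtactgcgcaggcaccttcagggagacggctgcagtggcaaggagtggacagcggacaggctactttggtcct
Slc30a1: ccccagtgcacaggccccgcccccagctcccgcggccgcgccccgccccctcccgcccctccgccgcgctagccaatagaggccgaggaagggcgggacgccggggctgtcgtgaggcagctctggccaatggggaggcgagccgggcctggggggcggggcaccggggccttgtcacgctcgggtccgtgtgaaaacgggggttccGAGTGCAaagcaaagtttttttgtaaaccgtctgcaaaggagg

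Before the start, Mt1 holds 1 match, whose first base is 23 bases before it, and Mt2 holds 3, at 223, 128 and 50 bases. Slc30a1 holds 1, at 43 bases, and Mt3 holds none in this window. Further matches lie in the first 50 bases after the start, and these 4 genes have 5 of them in all, each given here with 8 bases on either side. They begin at base 3 and base 21 of Mt1, base 5 of Mt2, base 28 of Mt3 and base 31 of Slc30a1.
Mt1, base 3: gggagctcTGCACTCcgcccgaa
Mt1, base 21: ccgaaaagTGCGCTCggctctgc
Mt2, base 5: ttcgggtcGTGCGCAggcccagg
Mt3, base 28: gacagcagTGCACACacacggag
Slc30a1, base 31: tccgggccGAGCGCAgtcgccgc

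Over the whole 300-base window Mt2 has 4 matches, Mt1 has 3, Slc30a1 has 2 and Mt3 has 1. Of 32851 RefSeq promoter windows of this length, 25.7% hold at least 1 match, 7.11% at least 2, 1.97% at least 3 and 0.517% at least 4. Promoters of 8 of the 10 genes were in the table. Both windows of Slc39a11 hold 1 match, the windows of Slc30a3 hold 0 and 1, and those of Slc39a1 and Slc39a10 hold none. Counts before and after the start depend on the start taken. In the annotation used for the values, the main Mt2 transcript begins at base 94172664, and minor Mt1 transcripts begin at 94179211 and 94179241. A match describes the letters and is not a measured binding site.

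Total RNA was depleted of rRNA and made into libraries with a kit that keeps strand, and kallisto assigned the paired reads to Ensembl transcripts. The values are TPM, a measure of abundance per transcript length, scaled between libraries, with sums of 889222.3 to 1173649.8 per library. From the steps between low values, depths of 12130000 to 15040000 read pairs were estimated. By the same steps, the transcripts of Mt3 held about 1546 to 3620 read pairs per library, those of Mt1 about 333 to 2780 and those of Mt2 about 242 to 884, whereas Slc30a1 had the fewest among the transporters at its lowest, about 229. Counting error is small beside the spread between mice for the metallothioneins. It is a larger part of the spread for Slc30a1, Slc39a11 and Slc39a1, with medians of about 305, 299 and 593 read pairs per library. Markers of hippocampal neurons were present in every mouse, with Snap25 at 1388 to 1705 TPM, Camk2a at 462 to 760.1 TPM, Slc17a7 at 311 to 461 TPM and Neurod6 at 90.4 to 145 TPM. In ethanol + stress replicates 2 and 3 Camk2a was the highest of the 12 mice and Neurod6 the lowest. In the libraries of ethanol replicate 2 and ethanol + stress replicates 2 and 3, short transcripts were high and long ones low. The median of 553 genes of 400 to 700 nt deviated by 0.35, 0.33 and 0.28 on the log2 scale from the mean of the 12 libraries in these 3, and by -0.29 to 0.13 in the other 9. For the metallothioneins, comparisons with control mice are therefore also given with this trend removed. Groups were compared on log2(TPM + 0.5) of the summed transcripts of a gene, in 1 limma model of all 18388 genes with two-sided tests, and genes with an unadjusted p under 0.01 were called, which is the threshold of the paper. With 3 mice against 3, an exact permutation test of a single gene cannot give a p below 0.1. In bulk tissue fewer cells of a type and less RNA per cell cannot be told apart.

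In control mice the metallothioneins were the most abundant of the 10 genes. Mt3, the brain form, which is known for its high level in neurons and astrocytes, reached 703 ± 90.3 TPM (SD, n = 3), Mt1 319 ± 172 TPM and Mt2 149.7 ± 41.5 TPM. The values of Mt3 lay above all those of Mt1, but Mt1 and Mt2 overlapped. Among the transporters Slc39a10 was highest at 61.4 ± 2.49 TPM and lay apart from all others. Slc39a1 (31.9 ± 1.72 TPM), Slc30a3 (30.1 ± 1.89 TPM) and Slc39a6 (29.8 ± 4.64 TPM) overlapped each other in order, and Slc39a11 (20.9 ± 1.504 TPM) overlapped Slc39a14 (19.1 ± 2.31 TPM). Slc30a1 was lowest, at 8.19 ± 0.99996 TPM, with no overlap with its neighbor.

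None of the 10 genes was called in ethanol mice, in which 0.68% of all genes were called, and none in stress mice, in which 0.511% were. In ethanol + stress mice 1 of the 10, Mt2, was called against 0.973% of all genes. Without a call, Mt1 and Mt3 were higher and Slc30a1 lower at an unadjusted p below 0.05 in the same comparison, a level that 5.38% of all genes reached. Values of ethanol + stress and control mice did not overlap for these 4 genes of the 10, where 10.2% of all genes had no overlap. No member had separate values in ethanol mice (8.25% of all genes did) or in stress mice (7.18%). No adjusted p of a member was below 0.05: the lowest was 0.791, by limma with Benjamini-Hochberg adjustment over all genes tested. The 3 comparisons share the control mice. Of the 179 genes called in ethanol + stress mice 128 were higher and 51 lower, but rescaling to a common total gave 54 higher and 64 lower and moved the median log2 fold change of all genes from 0.02 to -0.09. On that scale Mt1, Mt2 and Mt3 were at 1.45, 0.88 and 0.42 and Slc30a1 at -0.49. Over the 10 genes the median log2 fold change was -0.05 in ethanol mice, 0.01 in stress mice and -0.05 in ethanol + stress mice, beside medians of 0.02, 0.00 and 0.02 over all genes.

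**Figure D1:**
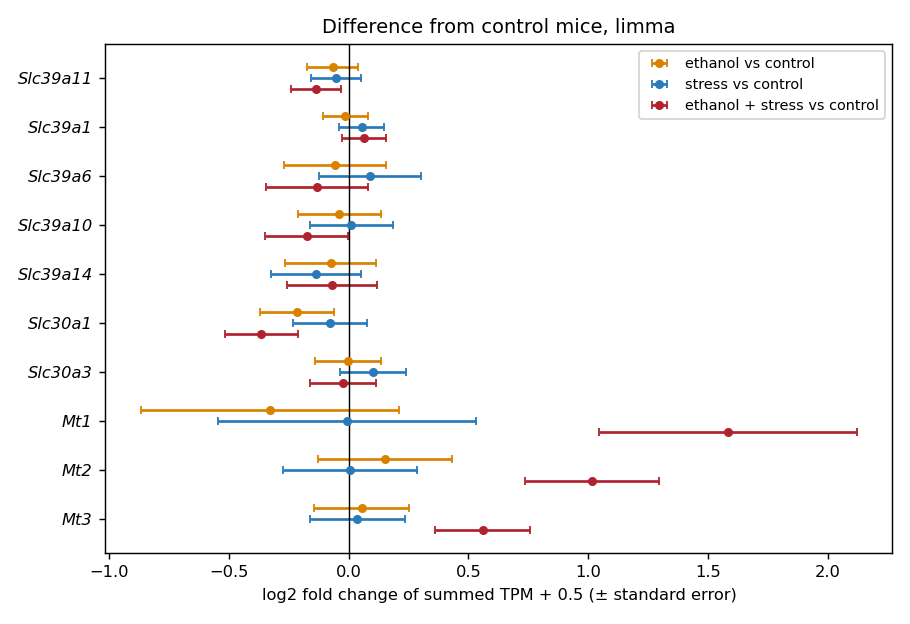
Log2 fold change of the summed TPM + 0.5 of each gene against control mice (x axis, limma estimate with its standard error) for the 10 genes (y axis) in ethanol, stress and ethanol + stress mice. The transporters lie between -0.36 and 0.10 in all comparisons, and the 3 metallothioneins of ethanol + stress mice lie at 0.56, 1.02 and 1.58.

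No ZIP importer was called in any comparison, and in each the exposed mice overlapped the control mice. Slc39a11 (ZIP11, on chromosome 11, 113244853 to 113650079, minus strand) belongs to a branch of the family known from the Golgi and nucleus. Its summed level was 22.6, 20.002 and 20.04 TPM in control mice, 19.7, 20.7 and 19.3 TPM in ethanol mice, 21.8, 20.7 and 17.97 TPM in stress mice and 19.2, 17.1 and 20.6 TPM in ethanol + stress mice. All groups overlapped. Its log2 fold change against control was -0.07 (SE 0.11), -0.05 (SE 0.11) and -0.14 (SE 0.11) in ethanol, stress and ethanol + stress mice by limma. Its spread within groups was narrow, 0.11 on the log2 scale, where the median of the 11156 genes at 5 TPM or more was 0.18.

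Slc39a1 (ZIP1, chromosome 3, 90248172 to 90253612, plus strand), a widely expressed importer at the plasma membrane, also kept to a narrow range. The 12 mice lay between 28.2 and 35.2 TPM, and group means were 31.9 ± 1.72, 31.6 ± 2.99, 33.1 ± 1.14 and 33.3 ± 2.40 TPM in control, ethanol, stress and ethanol + stress mice (SD, n = 3 each). A processed pseudogene on another chromosome, Slc39a1-ps, shares 617 of the 2333 stretches of 31 bases of the single Slc39a1 transcript and was listed at 0 in every library, so that how read pairs were divided between them leaves the level of Slc39a1 uncertain.

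Slc39a6 (ZIP6, chromosome 18, 24579881 to 24603817, minus strand) and Slc39a10 (ZIP10, chromosome 1, 46807544 to 46892852, minus strand) are close relatives that can form a complex at the plasma membrane. Slc39a10 was 62.2, 58.6 and 63.4 TPM in control mice, 63.9, 44.5 and 75.05 TPM in ethanol mice, 57.4, 64.5 and 64.0 TPM in stress mice and 65.0, 44.5 and 55.4 TPM in ethanol + stress mice. The lowest values, in ethanol replicate 2 and ethanol + stress replicate 2, came from libraries in which long transcripts were low, and the main transcripts of Slc39a10 and Slc39a6 have 5498 and 3882 bases. Slc39a6 was also lowest in these 2 libraries, at 20.5 and 20.7 TPM, against 27.0 to 36.2 TPM in the other 10. With the trend over length removed, both libraries were still the lowest of the 12 for Slc39a10 (5.58 and 5.59 on the log2 scale, against 5.86 to 6.16 in the others) and for Slc39a6 (4.45 and 4.46, against 4.76 to 5.18). Neither gene had an unadjusted p under 0.05 in any comparison with control, and their log2 fold changes in ethanol + stress mice were -0.18 (SE 0.17) for Slc39a10 and -0.13 (SE 0.21) for Slc39a6.

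Slc39a14 (ZIP14, chromosome 14, 70303469 to 70351425, minus strand), which carries manganese and iron as well as zinc and is known as a gene of the inflammatory response, had means of 19.1 ± 2.31, 18.3 ± 4.17, 17.4 ± 3.29 and 18.2 ± 2.53 TPM in control, ethanol, stress and ethanol + stress mice. Its values ran from 13.8 to 21.98 TPM and overlapped among all groups.

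**Figure D2:**
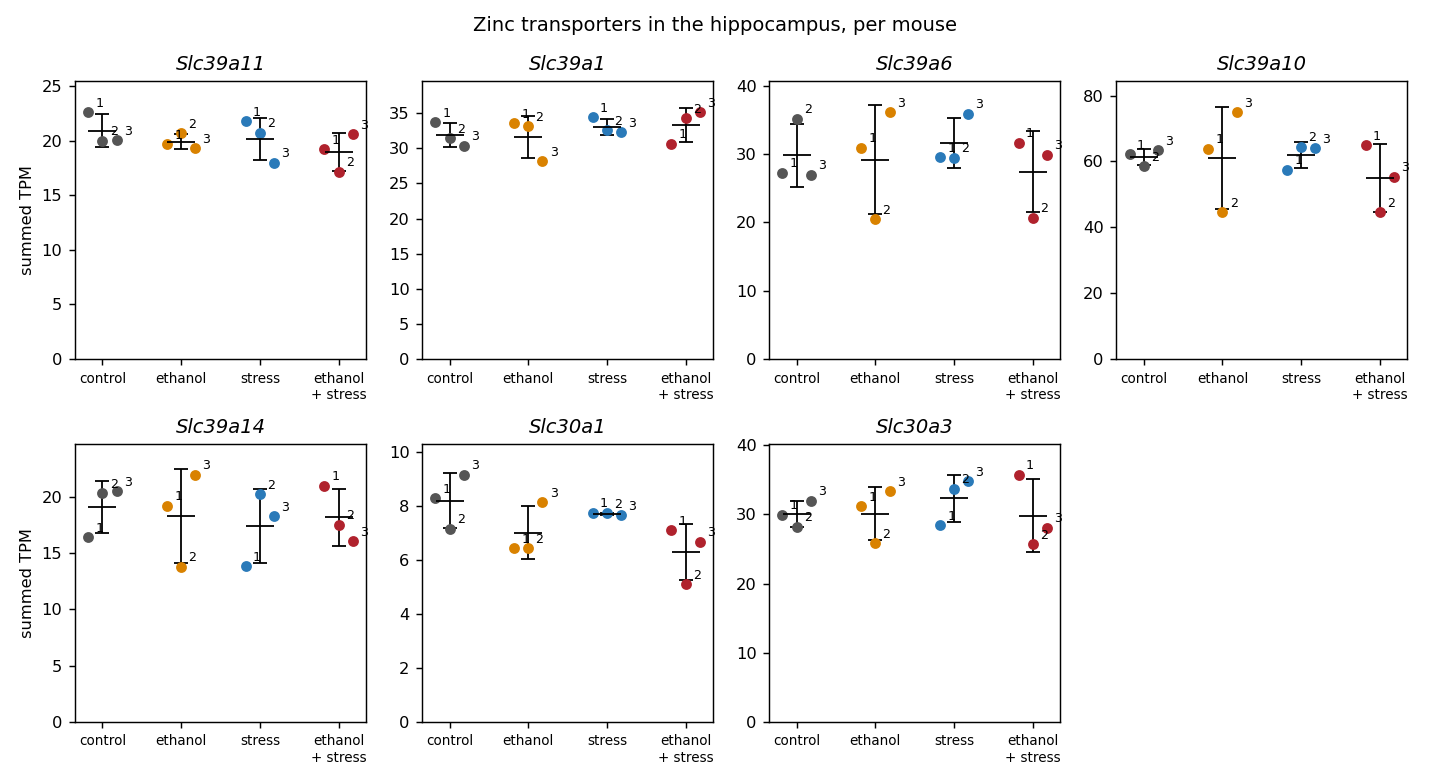
Summed TPM per mouse (y axis, from 0) of the 7 zinc transporters in the 4 groups (x axis), with points numbered by replicate and bars for the mean and SD of 3 mice. In every panel the exposed groups overlap the control mice, except that all 3 ethanol + stress mice lie below them for Slc30a1, at 5.10 to 7.08 against 7.15 to 9.15 TPM.

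Of the exporters, Slc30a1 (ZnT1, chromosome 1, 191906767 to 191913247, plus strand) moves zinc out across the plasma membrane and, like Mt1 and Mt2, is a known target of MTF1. It was 8.27, 7.15 and 9.15 TPM in control mice, 6.43, 6.42 and 8.13 TPM in ethanol mice, 7.74, 7.71 and 7.65 TPM in stress mice and 7.08, 5.10 and 6.67 TPM in ethanol + stress mice. The 3 ethanol + stress mice lay below the 3 control mice, with 7.08 and 7.15 TPM as the nearest pair. The log2 fold change was -0.36 (SE 0.15, adjusted p = 0.791 by limma with Benjamini-Hochberg adjustment), 0.777 of the control level. It was not a call, and the exact permutation p was 0.1, the smallest possible. Without ethanol + stress replicate 2, the library with low long transcripts and the lowest value, the log2 fold change was -0.23 and its unadjusted p was over 0.05, as it also was without control replicate 1 (-0.35) or 3 (-0.28). With the trend over length removed, the log2 fold change was -0.29 and the groups overlapped, since ethanol + stress replicate 3 (2.911 on the log2 scale) then lay above control replicate 2 (2.909). Over both ethanol groups against the other 6 mice the difference was -0.25 on the log2 scale (SE 0.11, adjusted p = 0.759, limma). The transcript has 5244 bases, and 439 of its 5214 stretches of 31 bases also lie, on the other strand, in the antisense gene 1700034H15Rik, which was not analysed here. The strand setting of the counting is not given in the sources used here, so that reads in these shared stretches cannot be told apart.

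Slc30a3 (ZnT3, chromosome 5, 31086106 to 31108237, minus strand) loads zinc into synaptic vesicles of glutamatergic neurons. Its level was 29.9, 28.2 and 32.0 TPM in control mice, 31.2, 25.8 and 33.4 TPM in ethanol mice, 28.5, 33.7 and 34.8 TPM in stress mice and 35.8, 25.7 and 28.1 TPM in ethanol + stress mice. These values overlapped throughout, and its log2 fold changes were 0.00 (SE 0.14) in ethanol mice, 0.10 (SE 0.14) in stress mice and -0.02 (SE 0.14) in ethanol + stress mice.

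Of the metallothioneins Mt2 was called in ethanol + stress mice, and Mt1 and Mt3 were not. The 3 genes lie next to each other on chromosome 8, within 27.7 kb from 94152607 to 94180327 on the plus strand, with Mt3 first, then Mt2 and Mt1. Nearly all of the signal of each gene came from 1 short transcript of 3 exons, of 549 bases for Mt1, 511 for Mt2 and 536 for Mt3, with mean shares of 99.3%, 99.0% and 98.1%.

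Mt1 was 455, 126 and 376 TPM in control mice, 422, 204 and 126 TPM in ethanol mice, 146, 370.4 and 392 TPM in stress mice and 661, 897 and 976 TPM in ethanol + stress mice. The ethanol + stress mice lay above all other 9 mice, which ran from 126 to 455 TPM. The share of all genes with such a separation was not computed. The log2 fold change of Mt1 in ethanol + stress mice was 1.58 (SE 0.54, adjusted p = 0.791, limma), a fold of 2.99, which is not a call. In ethanol mice it was -0.33 (SE 0.54) and in stress mice -0.01 (SE 0.54).

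Mt2 was 184, 104 and 161 TPM in control mice, 187, 205 and 110.4 TPM in ethanol mice, 109.9, 156 and 181 TPM in stress mice and 238, 295 and 365 TPM in ethanol + stress mice. Here too the 3 ethanol + stress mice were above the other 9, again with no share over all genes computed. The log2 fold change was 1.02 (SE 0.28, adjusted p = 0.791, limma), a fold of 2.02 and the single call among the 10 genes, which was lost when no filter on low values was used. In ethanol and stress mice it was 0.15 (SE 0.28) and 0.00 (SE 0.28). Of the 481 stretches of 31 bases in its main transcript, 267 also lie on the other strand in the antisense gene Gm45774, which was not analysed here, so reads in these shared stretches cannot be told apart either.

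Mt3 was 797, 617 and 695 TPM in control mice, 813, 883 and 534 TPM in ethanol mice, 739, 704 and 708 TPM in stress mice and 812, 1224 and 1104 TPM in ethanol + stress mice. Every ethanol + stress mouse was above every control mouse, but replicate 1 lay below ethanol replicates 1 and 2. Its log2 fold change was 0.56 (SE 0.20, adjusted p = 0.791, limma), a fold of 1.47, and not a call. For each of the 3 genes the exact permutation p was 0.1, the smallest that 3 against 3 mice allow. Their spread within groups was wide, at 0.79 for Mt1, 0.40 for Mt2 and 0.27 for Mt3 on the log2 scale. These exceeded the spread of 99.5%, 97.1% and 81.3% of the 11156 genes at 5 TPM or more.

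**Figure D3:**
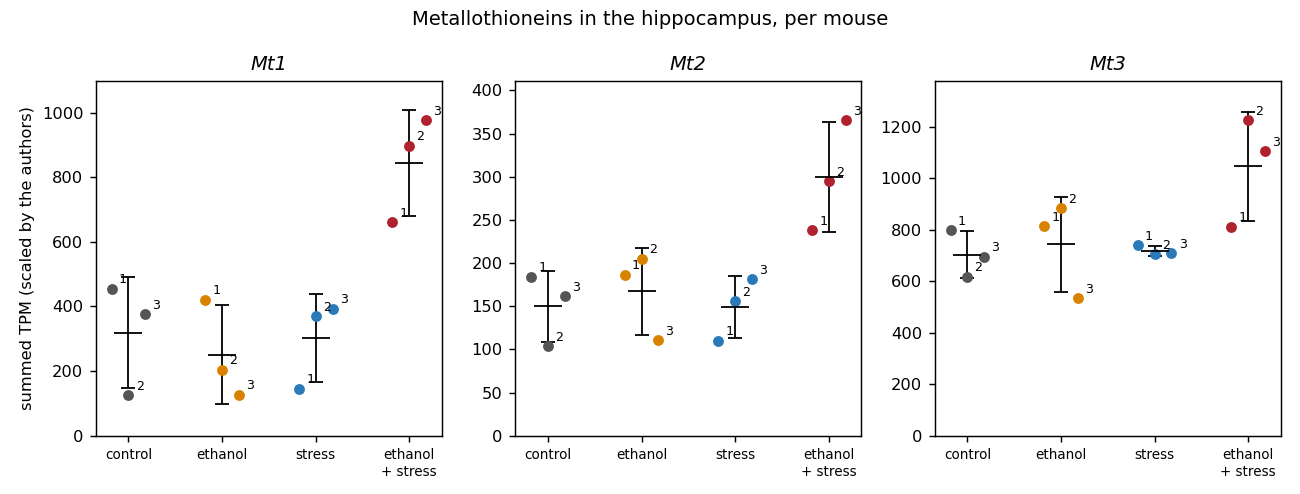
Summed TPM per mouse (y axis, from 0) of Mt1, Mt2 and Mt3 in the 4 groups (x axis), with points numbered by replicate and bars for the mean and SD of 3 mice. Ethanol + stress mice lie at 661 to 976 TPM for Mt1 and 238 to 365 TPM for Mt2, above all other mice, and at 812 to 1224 TPM for Mt3. How many of all genes separate from all other mice was not computed.

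Together the 3 metallothioneins summed to 1172 ± 299.8 TPM in control, 1161 ± 344 TPM in ethanol, 1169 ± 153 TPM in stress and 2190.4 ± 416 TPM in ethanol + stress mice (SD, n = 3 each). Mt3 made up 61.6%, 64.9% and 62.3% of this sum in the first 3 groups and 47.8% in ethanol + stress mice, in which Mt1 took a larger share. These are descriptions with no test.

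Control replicate 2 had the lowest value of each metallothionein among the control mice, and for Mt1 and Mt2 the lowest of all 12. Without it no member was called in ethanol + stress mice, and the log2 fold changes were 1.01 for Mt1, 0.77 for Mt2 and 0.47 for Mt3, of which only that of Mt2 kept an unadjusted p under 0.05. Mt2 was not called without ethanol + stress replicate 2 (1.02) or replicate 3 (0.86) either. Without control replicate 1, Mt1 and Mt2 were called, and without ethanol + stress replicate 1, Mt2 and Mt3.

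Because the metallothionein transcripts are short, their values were set beside those of other short genes. The 553 genes of 400 to 700 nt had a median log2 fold change of 0.14 in ethanol mice, 0.06 in stress mice and 0.22 in ethanol + stress mice, and the 5264 genes of 3000 nt or more of -0.04, -0.01 and -0.06. In ethanol + stress replicates 2 and 3 both short genes and metallothioneins were high. In replicate 1 short genes were low, with a median deviation of -0.23, and the deviations of Mt1, Mt2 and Mt3 were 0.94, 0.41 and 0.05. In ethanol replicate 2 short genes were as high as in any library, and Mt1, Mt2 and Mt3 deviated by -0.76, 0.20 and 0.17. With the trend over length removed in each library, the log2 fold changes in ethanol + stress mice were 1.39 for Mt1, 0.81 for Mt2 and 0.36 for Mt3, which makes 2 calls, Mt2 and Mt3. With this trend removed, no member was called without control replicate 2, and 1 was called without any one ethanol + stress replicate, Mt3 without replicate 1 or 3 and Mt2 without replicate 2.

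**Figure D4:**
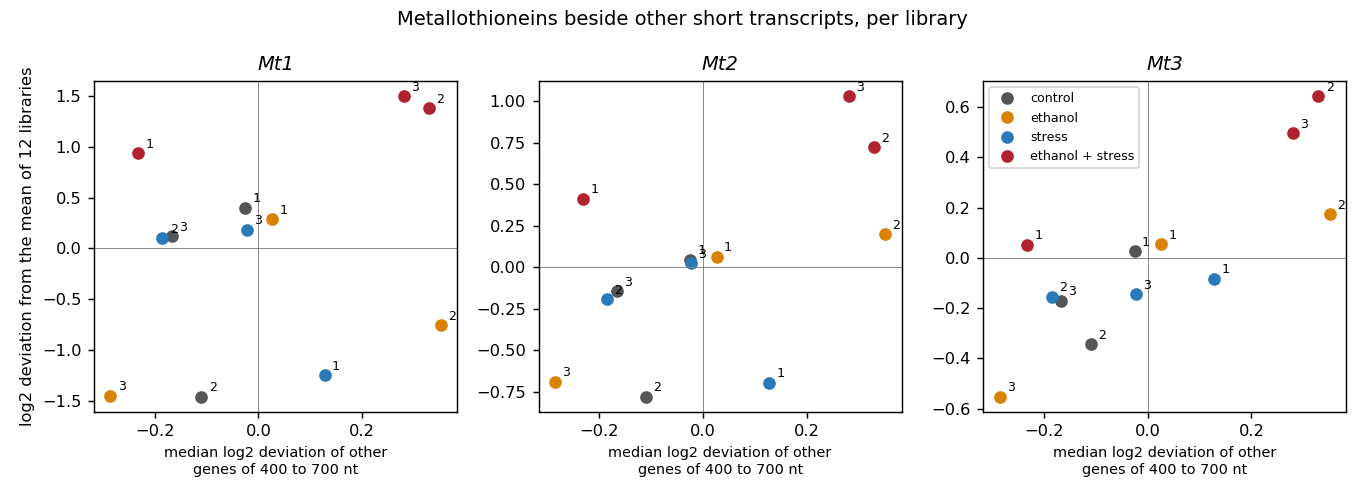
Log2 deviation of Mt1, Mt2 and Mt3 from the mean of the 12 libraries (y axis) against the median deviation of the other genes of 400 to 700 nt in the same library (x axis), with points colored by group and numbered by replicate. Ethanol + stress replicates 2 and 3 lie at 0.33 and 0.28 on the x axis and replicate 1 at -0.23, and all 3 lie above 0 on the y axis of each panel.

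The design also allows a test of whether both exposures together differed from the sum of their separate differences. For Mt1 this interaction was 1.92 on the log2 scale (SE 0.76, adjusted p = 0.99998, limma), and no member was called, where 0.462% of all genes were. With the trend over length removed Mt3 was called for the interaction, where 93 of the 18388 genes were. The sizes in this paragraph are with that trend left in. Averaged over both levels of the other exposure, ethanol raised no member to a call (1.13% of all genes were called), with Mt2 at 0.58 (SE 0.20, adjusted p = 0.759, limma). Stress likewise gave no call (0.587% of all genes), with Mt1 at 0.95 (SE 0.38) and Mt2 at 0.43 (SE 0.20), both with an adjusted p of 0.9999 by limma. Ethanol alone and stress alone gave log2 fold changes of -0.33 to 0.15 for Mt1 and Mt2.

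Among the 29 transcripts tested, 1 was called in ethanol + stress mice, the main Mt2 transcript ENSMUST00000034214.7 (log2 fold change 1.01, SE 0.29, adjusted p = 0.769, limma), where 1.21% of all transcripts were called. None was called in ethanol mice (1.26% of all) or stress mice (0.914%). The share of each transcript within its gene was tested for 27 of them, and none was called in ethanol, stress or ethanol + stress mice, beside 1.31%, 1.05% and 1.28% of all transcripts tested so.

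Slc39a11 is the member with the most transcripts tested, 6 of 8. The main one, ENSMUST00000106633.9, made up 33.7% to 60.1% of the gene, with 9.28, 8.41 and 9.61 TPM in control, 7.003, 8.36 and 8.18 TPM in ethanol, 13.1, 6.99 and 6.98 TPM in stress and 6.56, 7.51 and 8.45 TPM in ethanol + stress mice. The 3 stress values lay on both sides of the control values, and its log2 fold change was -0.07 (SE 0.22). The transcript ENSMUST00000042657.15 has the same last base, a first base within 10 bases, and 1 more exon. It was 2.03, 0.966 and 1.41 TPM in control mice and 0, 1.37 and 0 TPM in stress mice, with 1.36, 1.09 and 1.49 TPM in ethanol and 0.714, 0.337 and 1.72 TPM in ethanol + stress mice. It is listed at 0 in stress replicates 1 and 3, and an exact 0 can be a failed estimate. In stress replicate 1 the main transcript had its highest value. The log2 fold change in stress mice was -1.31 (SE 0.54, adjusted p = 1, limma) and that of its share -1.32 (SE 0.52), and neither was called. Both were called without stress replicate 2.

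The other 4 tested transcripts of Slc39a11 were not called in any comparison. ENSMUST00000071539.9 had log2 fold changes of -0.12, -0.04 and 0.20 in ethanol, stress and ethanol + stress mice, ENSMUST00000146031.7 of 0.27, -0.02 and 0.32, and ENSMUST00000125890.7 of 0.10, -0.29 and -0.96. ENSMUST00000149034.7 was 0.487, 0.676 and 1.74 TPM in control mice and 0.539, 0 and 0 TPM in ethanol mice, at most about 9.07 read pairs in any library, and its log2 fold change of -1.11 (SE 0.48) in ethanol mice was no call.

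The 8 transcripts begin at a pair of annotated starts 84.3 kb apart, 4 near base 113650079 and 4 near base 113565779. The 4 of the upstream start summed to 5.27 ± 1.48, 6.91 ± 0.994, 5.05 ± 1.40 and 5.501 ± 1.81 TPM in control, ethanol, stress and ethanol + stress mice, with overlap throughout. The 4 of the downstream start summed to 15.7, 15.3 and 15.9 TPM in control mice, 12.6, 12.9 and 13.5 TPM in ethanol mice, 16.03, 14.8 and 14.5 TPM in stress mice and 12.3, 13.7 and 14.5 TPM in ethanol + stress mice. The downstream sums of all 6 mice of the ethanol groups, and of 2 of the 3 stress mice, lay below those of the control mice. Among gene sums 8.25% in ethanol and 10.2% in ethanol + stress mice had no overlap with control mice, and the share among sums over a start was not computed. This split was made after the values were seen and carries no test.

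**Figure D5:**
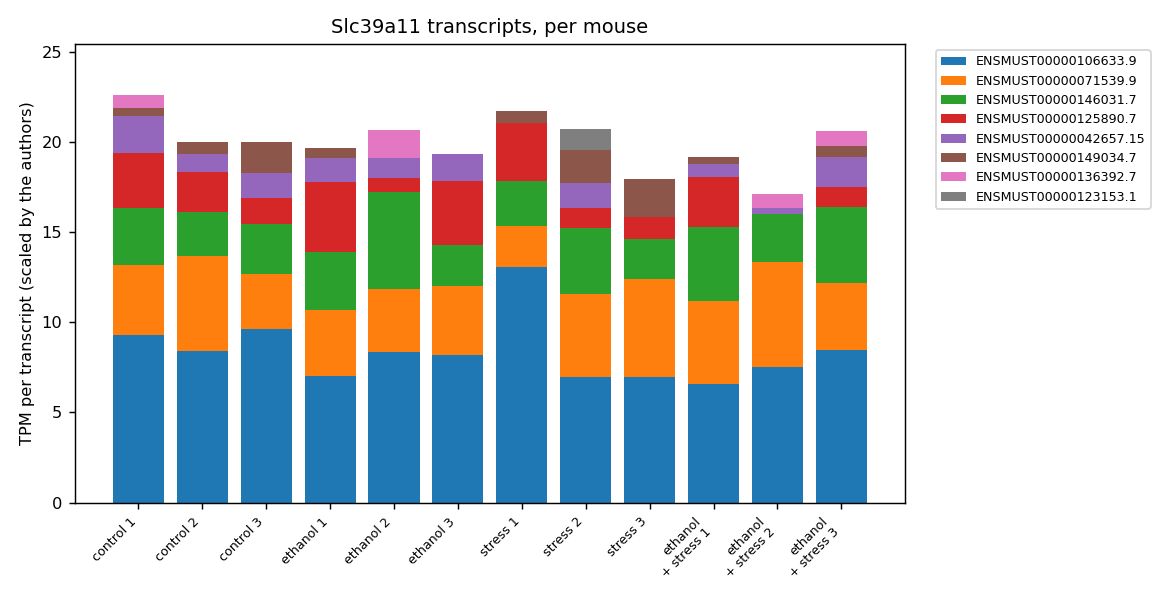
TPM of each of the 8 Slc39a11 transcripts, stacked from 0 (y axis) for the 12 mice (x axis). The main transcript, at the bottom, runs from 6.56 to 13.1 TPM, and ENSMUST00000042657.15 is listed at 0 in stress replicates 1 and 3.

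No other gene of zinc transport was called in a comparison with control. A list of 22 held 9 further ZIP importers, 8 further ZnT exporters, Mt4, the sensors Mtf1 and Gpr39, the zinc transporter Tmem163 and the channel Trpm7. Of the 19 tested, none was called in any of the 3 comparisons with control, and their median log2 fold changes were -0.01, 0.02 and 0.02 in ethanol, stress and ethanol + stress mice. The one with an unadjusted p under 0.05 was Trpm7, a channel kinase that passes zinc and magnesium, at 0.26 in ethanol and 0.27 in ethanol + stress mice. Over both levels of stress, ethanol gave a call for Trpm7, at a log2 difference of 0.28 (SE 0.082, adjusted p = 0.759, limma), with 20.8 to 24.3 TPM in the 6 mice of the ethanol groups and 15.9 to 20.5 TPM in the other 6. Mt4, a form of squamous epithelia, was listed at 0 in 11 of 12 libraries, at 0.651 TPM in control replicate 2, and was not tested.

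Marker lists show what else differed between the same mice. All 5 blood genes (Hba-a1, Hba-a2, Hbb-bs, Hbb-bt and Alas2) were called higher in ethanol mice, in ethanol + stress mice and for ethanol over both levels of stress, the first 2 of these with median log2 fold changes of 1.24 and 1.08. Their summed level was 1603 to 2022 TPM in control, 3146 to 6815 TPM in ethanol, 2593 to 3392 TPM in stress and 2454 to 6480 TPM in ethanol + stress mice. Ethanol mice had the same high blood genes with Mt2 at 110.4 to 205 TPM, which overlapped control mice. None of 8 astrocyte markers was called in any comparison, with summed levels of 2668 to 3019 TPM in control, 2367 to 3416 TPM in ethanol, 2741 to 2782 TPM in stress and 2478 to 3698 TPM in ethanol + stress mice. Ethanol + stress replicates 2 and 3, which had the highest values of all 3 metallothioneins among the 12 mice, also had the highest astrocyte sums, 3487 and 3698 TPM, and the highest oligodendrocyte sums, 5908 and 5868 TPM. Ethanol + stress replicate 1, with Mt1 and Mt2 above all mice of the other groups, had an astrocyte sum of 2478 TPM and an oligodendrocyte sum of 3441 TPM, both below every control mouse. In the comparisons with control no gene was called either among 6 markers of endothelium, 5 of microglia, 5 of oligodendrocytes, 5 of choroid plexus, 4 of dentate granule cells, 4 of CA pyramidal cells, 4 of hippocampal neurons, 3 of thalamus or 7 genes induced by glucocorticoids. All 4 markers of CA pyramidal cells had negative log2 fold changes in ethanol + stress mice, from -0.38 to -0.12 with a median of -0.27, where the median of all genes was 0.02. They were negative in ethanol mice too, with a median of -0.17, as were all markers of dentate granule cells and oligodendrocytes. In ethanol + stress replicate 1, however, Wfs1 (41.2 TPM) and Fibcd1 (62.5 TPM) lay above every control mouse, and Grik4 and Nrip3 lay within the control range. In the other tests 1 gene each of 3 lists was called, and these are named here after their values were seen. Tmem119, a microglial membrane protein, had an interaction of 0.54 on the log2 scale (SE 0.16, adjusted p = 0.99998, limma) and, like Mt1 and Mt2, was higher in all 3 ethanol + stress mice, at 20.1 to 22.8 TPM, than in the other 9, at 13.8 to 19.5 TPM. The share of all genes with this separation was not computed, and the other microglial markers lacked it. In ethanol + stress replicate 1, P2ry12 (53.6 TPM) and Aif1 (12.9 TPM) lay below every control mouse, and Cx3cr1 and Csf1r overlapped control mice. Vwf, the endothelial clotting factor, was called for stress over both levels of ethanol (0.32, SE 0.10) and the dentate gene C1ql2 for ethanol over both levels of stress (-0.30, SE 0.093). The 6 endothelial markers together had a median log2 fold change against control of -0.04 in stress and 0.06 in ethanol + stress mice. The 4 dentate markers ranged from -0.43 to -0.09 in ethanol mice and from -0.24 to 0.16 in ethanol + stress mice. The summed glucocorticoid-induced genes were at 217 to 278 TPM in control and 236 to 336 TPM in ethanol + stress mice. Choroid plexus genes, which mark a neighboring tissue, ranged from 38.1 to 7231 TPM over the 12 mice. The part of these lists in the level of the metallothioneins was not tested.

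Across the 12 mice the metallothioneins moved together. Mt1 and Mt2 had a Pearson r of 0.91 and a Spearman rho of 0.88 (adjusted p = 0.0027 and 0.00645 by permutation tests over 45 pairs of members), an r of 0.86 without the 2 libraries farthest from the median of Mt1 and of 0.87 for deviations from the group means. Mt2 and Mt3 had an r of 0.88 and a rho of 0.88 (adjusted p = 0.0027 and 0.00645 by permutation), 0.84 without the 2 farthest libraries and 0.74 within groups. For Mt1 and Mt3 r was 0.78 and rho 0.75 (adjusted p = 0.0259 and 0.0456 by permutation), 0.63 without the 2 farthest libraries and 0.55 within groups. Slc39a10 and Slc30a3 also rose and fell together, with an r of 0.86 and a rho of 0.93 (both adjusted p = 0.0027 by permutation), 0.74 without the 2 farthest libraries and 0.89 within groups. Slc30a1 and Mt3 ran in opposite directions, with an r of -0.75 and a rho of -0.76 (adjusted p = 0.0332 and 0.0456 by permutation), -0.61 both without the 2 farthest libraries and within groups. With the trend over length removed, r was -0.54 for this pair of a long and a short transcript. It moved from -0.75 to -0.38 for Slc39a10 with Mt3. For Mt1 with Mt2, Mt2 with Mt3 and Mt1 with Mt3 it was then 0.94, 0.86 and 0.90. In all, 11 of the 45 pairs had an adjusted p under 0.05 for r, 8 positive and 3 negative. This count fell to 3 without ethanol replicate 3, 4 without ethanol + stress replicate 2, 5 without stress replicate 3, 6 without ethanol replicate 2 or ethanol + stress replicate 3 and 7 without stress replicate 2, and it was 22 with values rescaled to a common total. Members share the library, its scaling and the trend over length, and the r of Slc39a1 with Slc39a14 turned from -0.74 to 0.55 when values were rescaled to a common total. The labels name no batch or date within which the relations could be checked.

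Some genes outside the lists followed a member closely over the 12 libraries, among 11217 genes at 5 TPM or more. For Mt2 these were mt-Atp6 (r = 0.93) and Snx6 (r = 0.90). For Slc39a11 they were Bcas3 (r = 0.88), Tdrd7 (r = 0.86) and Smc2 (r = 0.85), and for Slc30a3 Smarcal1 (r = 0.96), Entpd4b (r = 0.95) and Sf3b3 (r = 0.93). They were picked as the highest of many and are given as a description.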

How the data were processed

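Hippocampal RNA-Seq values of 12 mice, 3 per group, were taken as deposited. The deposited signal values are TPM that the authors made with kallisto on Ensembl mouse transcripts and then scaled between libraries; the submitters' processing notes also name CASAVA, sleuth and mm10, and versions of these tools are not given in the sources used here. Of 115270 transcripts, 113580 were matched to GENCODE (GRCm38) and summed per gene. Depth was estimated from the steps between low values of single-transcript genes, of which 82.0% to 84.4% came out whole within 0.15 read pairs.

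The filter kept genes and transcripts that reached 0.1 TPM in 6 or more libraries. Their values on the log2(TPM + 0.5) scale, which understates changes of low genes, were fitted with limma 3.58.1 in R 4.3.3 (lmFit, eBayes with trend, two-sided, no replicate block). The share of a transcript was the log2 ratio of its TPM to that of the rest of its gene. In simulated data of this design, limma called 90% of 100 genes changed by 1 on the log2 scale in the comparison of ethanol + stress with control over 18388 genes, and 1.12% of unchanged genes. The simulated noise was normal, with the spreads within groups shuffled among genes. The rate therefore does not hold for genes of wide spread, such as Mt1 (0.79 on the log2 scale) and Mt2 (0.40). Correlations used 100000 permutations. Shared stretches of 31 bases were counted in GENCODE transcripts, both strands. Scripts ran in Python 3.11.15 with pandas 2.3.3, numpy 2.4.6, scipy 1.17.1 and matplotlib 3.10.9.

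The members and the lists were chosen with earlier results of these data known. All 10 members were named, with their most abundant transcript where it was called, every tested Slc39a11 transcript, interaction and main effects at an unadjusted p under 0.05, and the 3 genes most like Slc39a11, Mt2 and Slc30a3. One of these genes is not reported here. Groups and replicate numbers came from the labels, which do not say whether mice shared a litter. Same-numbered samples did not deviate together (median r of -0.0144 over 18 pairs of libraries, from -0.175 to 0.165), so the numbers were taken only as names. Alternatives were other pseudocounts, filters and scalings, removal of the trend over transcript length, eBayes without trend, only the groups compared, a replicate block and leaving out each replicate in turn. Removal of the length trend with each replicate left out was added after seeing the data.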

Additional observations from a re-analysis of the deposited data

Results flagged for a closer look

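The interaction of ethanol and stress for Mt1 was 1.92 on the log2 scale (SE 0.76, adjusted p = 0.99998, limma with Benjamini-Hochberg adjustment, unadjusted p under 0.05), a term that sets the difference between stressed and unstressed mice with ethanol against that without it. Mt1 was higher in stressed than in unstressed mice where both were exposed to ethanol (661 to 976 against 126 to 422 TPM) and overlapped where neither was (146 to 392 against 126 to 455 TPM). It ranged from 1.45 to 2.49 when each library was left out in turn.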

How the results depend on the processing

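Under the alternatives that keep all libraries, the call of Mt2 in ethanol + stress mice depended on the filter: without a filter no member gene was called, and no member transcript. The count of called genes rose from 1 to 2 with values rescaled to a common total (Mt2 and Mt3), with the length trend removed (Mt2 and Mt3), without the 20 highest transcripts (Mt2 and Mt3) and with only the groups compared (Mt1 and Mt2), and called transcripts rose from 1 to 2 with the common total and with only the groups compared. With the length trend removed 1 gene, Mt3, was called for the interaction. Without a filter 1 transcript and 1 share were called in stress mice. With the common total 22 instead of 11 pairs of members had an adjusted p under 0.05. The cause of these changes was not tested. With the replicate number as a block, which pairs samples that share only a number, 1 gene was still called (Mt2), Mt1, Mt3 and Slc30a1 kept an unadjusted p under 0.05, and 0 instead of 1 transcripts were called in ethanol + stress mice.

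Small differences changed sign. These were Slc39a1 in ethanol + stress mice (-0.069 with the common total, -0.015 without the 20 highest transcripts), Slc39a10 in stress mice (-0.0062 and -0.0077), Mt2 in stress mice (-0.013 and -0.015, and -0.072 with the length trend removed), Mt2 in ethanol mice (-0.0012 with the length trend removed), and Mt3 in ethanol mice (-0.027 with the common total, -0.094 with the length trend removed) and in stress mice (-0.038 with the length trend removed).

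With each library left out in turn, 0 to 2 genes were called in ethanol + stress mice, 0 to 1 for the interaction, 0 to 2 for ethanol over both levels of stress and 0 to 1 for stress over both levels of ethanol. The transcripts called numbered 0 to 1 in stress and 0 to 2 in ethanol + stress mice, the shares 0 to 1 in both, and the pairs 3 to 12. In ethanol + stress mice the log2 fold change of Mt1 stayed between 1.01 and 1.94, of Mt2 between 0.77 and 1.19 and of Mt3 between 0.44 and 0.73, or, with the length trend also removed, 0.83 to 1.70, 0.58 to 0.94 and 0.28 to 0.41, with 0 to 2 genes called. In ethanol mice the ranges that crossed 0 were Mt1 -0.90 to 0.077, Mt2 -0.092 to 0.42, Mt3 -0.086 to 0.28, Slc30a3 -0.081 to 0.10, Slc39a1 -0.058 to 0.066, Slc39a10 -0.20 to 0.17, Slc39a14 -0.22 to 0.11 and Slc39a6 -0.23 to 0.17. In stress mice the ranges that crossed 0 were Mt1 -0.58 to 0.45, Mt2 -0.24 to 0.21, Mt3 -0.055 to 0.13, Slc30a1 -0.17 to 0.0012, Slc39a10 -0.022 to 0.065, Slc39a11 -0.11 to 0.026, Slc39a14 -0.25 to 0.018 and Slc39a6 -0.0039 to 0.21. In ethanol + stress mice the ranges that crossed 0 were Slc30a3 -0.16 to 0.076, Slc39a14 -0.17 to 0.014 and Slc39a6 -0.24 to 0.056.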
